A study of Caenorhabditis elegans with 2 samples.

Results

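The X chromosome of Caenorhabditis elegans carries 276 of the 612 nuclear tRNA genes of the Ensembl annotation, and the occupancy of these 276 genes by the tagged ZTF-29 protein is described here, with the 336 autosomal tRNA genes beside them. The members are all annotated tRNA genes on X, a rule that uses no measured value, though this set of genes was picked with earlier results of these data known. A gene was called at a peak when a peak summit, the base of highest signal in a peak, lay within 200 bp of its body. The measurements are ChIP-seq (chromatin immunoprecipitation with sequencing) of whole embryos of worm strain RW12283. In this strain a TY1, EGFP and 3xFLAG tag was inserted by CRISPR into the endogenous ztf-29 gene, which is named for its zinc fingers and lies on chromosome III per the labels. The series holds 1 group, embryos of the middle stage obtained by egg bleaching with a labelled age of 0 hour, as biological replicates 1 and 2. Both replicates carry the tag, sonicated chromatin of 200 to 800 bp was precipitated with an antibody against GFP, and the possible control experiment that the labels name was not analysed here. Peaks from whole embryos average over all cells, and occupancy in few cells and weak occupancy in many cannot be told apart.

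Nuclear tRNA genes are transcribed by RNA polymerase III from a promoter inside the gene. The A box lies near the 5' end of the gene and the B box further 3', both are bound by the assembly factor TFIIIC, and TFIIIB with the TATA-binding protein is then placed just upstream of the start. Transcription ends in a run of T after the 3' end. Worm tRNA genes come in many identical copies per anticodon, many lie in introns of protein-coding genes, and X is known for carrying a large part of them.

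The genes that the values below turn on are shown first, 5' to 3' on the gene strand, read from the reference genome WBcel235 (ce11). Capitals mark the B box letters, GTTCNANNC, which were searched on the gene strand alone. The shorter form GTTCNA, which is their first part, was searched as well. The first set is the 3 leucine genes with anticodon CAA on X, each a single copy with an intron of its own, which range from the second strongest tRNA peak of the chromosome to none.
C04A11.t1 (WBGene00000308, chrX:13665555-13665673, plus strand, at a peak of signal 347): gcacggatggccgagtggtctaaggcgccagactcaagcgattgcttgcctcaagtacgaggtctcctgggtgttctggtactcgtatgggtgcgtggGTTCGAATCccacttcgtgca
F42F12.t1 (chrX:12348007-12348126, minus strand, at a peak of signal 77.7): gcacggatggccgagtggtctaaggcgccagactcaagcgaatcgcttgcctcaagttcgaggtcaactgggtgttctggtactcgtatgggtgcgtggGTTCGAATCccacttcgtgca
F02D10.t3 (chrX:13443386-13443504, minus strand, at no peak): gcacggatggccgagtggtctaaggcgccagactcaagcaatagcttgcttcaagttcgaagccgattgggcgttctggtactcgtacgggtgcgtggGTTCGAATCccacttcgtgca
F02D10.t3 and C04A11.t1 are both 119 bp long and differ at 11 positions.

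The second set is genes that stand for families of identical copies, together with F28H6.t1, an arginine gene at the tenth strongest tRNA peak of X.
C06G1.t1 (histidine, anticodon GTG, chrX:16634830-16634901, minus strand, 1 of 8 identical copies on X at a peak): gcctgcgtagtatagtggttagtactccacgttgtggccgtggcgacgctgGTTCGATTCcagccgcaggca
ZK563.t1 (threonine, anticodon AGT, chrX:3371422-3371493, minus strand, 2 of 7 copies on X at a peak): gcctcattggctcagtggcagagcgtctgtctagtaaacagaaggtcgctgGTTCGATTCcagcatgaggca
R04A9.t1 (glutamine, anticodon TTG, chrX:410391-410462, plus strand, 2 of 9 copies on X at a peak): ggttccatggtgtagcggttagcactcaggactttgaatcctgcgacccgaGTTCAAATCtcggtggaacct
F15G9.t1 (alanine, anticodon TGC, chrX:9743589-9743660, plus strand, 3 of 3 copies on X at a peak): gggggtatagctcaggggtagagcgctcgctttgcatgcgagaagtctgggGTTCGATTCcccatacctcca
F28H6.t1 (arginine, anticodon CCT, chrX:14115691-14115763, plus strand, 1 copy on X, at a peak): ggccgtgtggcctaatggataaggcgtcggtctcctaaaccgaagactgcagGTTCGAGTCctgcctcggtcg

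The third set is the 50 bp before the 5' end of genes whose bodies are identical and whose peak status is not, the tryptophan genes sup-7, sup-28, sup-21 and sup-33 and the histidine genes C06G1.t1, C49F5.t1 and F28H6.t3.
sup-7 (chrX:6371328-6371377, at a peak): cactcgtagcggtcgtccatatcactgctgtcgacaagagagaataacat
sup-28 (chrX:8944304-8944353, at a peak): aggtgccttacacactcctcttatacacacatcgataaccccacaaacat
sup-21 (chrX:8877290-8877339, at no peak): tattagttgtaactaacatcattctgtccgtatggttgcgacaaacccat
sup-33 (chrX:8945232-8945281, at no peak): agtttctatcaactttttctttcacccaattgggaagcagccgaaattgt
C06G1.t1 (chrX:16634902-16634951, at a peak): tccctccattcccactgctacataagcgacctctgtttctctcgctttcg
C49F5.t1 (chrX:11993593-11993642, at no peak): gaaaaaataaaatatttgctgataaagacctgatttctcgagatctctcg
F28H6.t3 (chrX:14135824-14135873, at no peak): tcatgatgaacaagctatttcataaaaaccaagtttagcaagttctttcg

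The deposited peak lists are of several kinds. A conservative list (814 peaks, 172 on X) and a thresholded list (1114 peaks, 211 on X) were made from both replicates together, and each replicate has an own thresholded list (466 peaks in replicate 1 and 802 in replicate 2). Each list comes from a longer ranked list of candidates, 54900 of them for the conservative list. Signal is the peak caller's value in each peak's line, on a scale that the sources used here do not give, and it was used to rank or describe peaks within 1 list. The IDR (irreproducible discovery rate) is the expected share of peaks, among those ranked at least as high, that do not recur between the sets of peaks compared. Listed peaks had an IDR of at most 0.01. A replicate's own list was made from its alignments alone, so its IDR does not measure recurrence between the 2 replicates. With a single group of 2 samples nothing could be tested over samples, so shares of genes are given with an exact 95% interval (Clopper-Pearson). Such an interval covers counting error alone and does not allow for neighbours that share a peak. No read depth is given in the sources used here.

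Of the 276 X tRNA genes, 94 were at a conservative peak (34.1%, 28.5 to 39.98%). Among autosomal tRNA genes it was 110 of 336 (32.7%, 27.7 to 38.0%), among all nuclear tRNA genes 33.3%, and among all annotated genes of any class 2.29%. The X share and the autosomal share have overlapping intervals. Between autosomes the share ran from 20.5% on chromosome V to 42.2% on chromosome III, a span that holds the X value. At a thresholded peak were 95 X genes (34.4%), against 36.0% of autosomal and 35.3% of all nuclear tRNA genes. In the replicates' own lists the shares of X genes were 23.6% in replicate 1 and 29.0% in replicate 2 (mean 26.3% ± 3.84, SD, n = 2). For autosomal genes these were 17.9% and 26.2% (22.02% ± 5.89, SD, n = 2), and for all nuclear tRNA genes 20.4% and 27.5%. X genes had the higher share in both replicates, with intervals that overlap those of the autosomal genes.

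**Figure D1:**
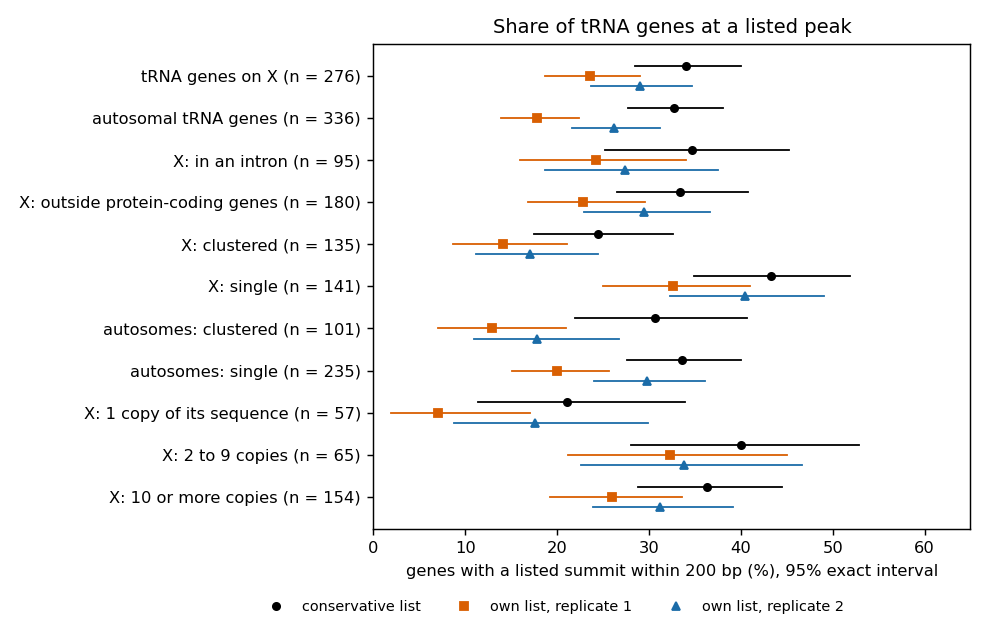
Share of tRNA genes with a listed summit within 200 bp, by chromosome set, gene surroundings and number of identical copies (points, percent of genes, with exact 95% intervals as lines), for the conservative list and each replicate's own list. X genes in clusters (24.4%) and X genes with 1 copy of their sequence (21.1%) have the lowest shares in the conservative list, and single X genes (43.3%) the highest.

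Seen from the peaks, 88 of the 172 conservative peaks on X had their summit at a tRNA gene (51.2%, 43.4 to 58.8%), against 101 of 642 on the autosomes (15.7%, 13.0 to 18.8%). X holds 276 of the 612 nuclear tRNA genes and 172 of the 814 conservative peaks. The peaks at X tRNA genes had a median signal of 144 (quartiles 99.7 and 197), against 114 at autosomal tRNA genes (89.0 and 145) and 102 over all conservative peaks. Of the 100 strongest conservative peaks, 24 were at X tRNA genes and 14 at autosomal ones. The order was the same in each replicate's own list, with medians of 67.9 at X and 54.6 at autosomal tRNA genes in replicate 1, and 97.7 and 74.8 in replicate 2. Median peak width was 276 bp in both sets.

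Every X gene was placed in 1 of 4 classes. Beside the 94 genes at a conservative peak, 5 genes were at a thresholded peak alone, which makes 99 genes at a peak of either list (background 36.6% of all nuclear tRNA genes). A further 104 genes (37.7%) had a ranked candidate within 200 bp that was not listed, with a median candidate signal of 36.8 (6.46 to 84.2). The last 73 (26.4%) had no candidate there, and 48 of these had none in either replicate's ranked list. For autosomal tRNA genes the share with no candidate was 27.1%. The strongest candidates of the 94 genes at a conservative peak had a median signal of 147 (57.8 to 438). They overlapped those of the 104 unlisted genes between 57.8 and 84.2. Listed peaks at X tRNA genes went lower, to 21.1 in the conservative list and 2.36 in the thresholded list.

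The strongest tRNA peak on X was at C42D8.t1, an isoleucine gene (anticodon AAT, chrX:5085622-5085695, minus strand, outside protein-coding genes). It had a signal of 438, the rank 8 of all conservative peaks, with 132 in replicate 1 and 301 in replicate 2. The leucine gene C04A11.t1 followed with 347 (148 in replicate 1 and 185 in replicate 2), and the asparagine gene F41D9.t3, in an intron of sulp-3, a sulfate permease family gene, with 313 (97.0 and 210). The lysine gene W03G11.t1 had 308. The alanine genes F15G9.t1 and F15G9.t2, in 1 intron of him-4, which encodes the extracellular matrix protein hemicentin, shared a peak of 291. Then came the methionine gene F22F1.t6 (285), the threonine gene R01H5.t1 (278), the lysine gene C33G3.t2 (276), the glutamate gene C28G1.t1 (262) and the arginine gene F28H6.t1 (261). All 11 genes at these 10 peaks were listed in both replicates. C28G1.t1 is the 1 member that touches an exon, of the protein-coding gene C28G1.2 on the same strand.

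At the other end, the arginine gene C18A11.t2 had the weakest nearest peak, of signal 25.05, and a further conservative summit of 58.5 on its other side. The glycine genes T10B10.t1 and T10B10.t2 shared a peak of 57.8, and the lysine gene K11E4.t3 had 68.2. The weakest conservative peak within 200 bp of an X tRNA gene, of 21.1, was the nearest peak of no X tRNA gene. None of the 4 genes C18A11.t2, T10B10.t1, T10B10.t2 and K11E4.t3 was in either replicate's own list. Just outside the list, the lysine gene F55F3.t1 had the highest unlisted candidate signal, 84.2 at an IDR of 0.0206. The alanine gene C11E4.t1 had 75.6 (IDR 0.0324), the cysteine gene R04E5.t5 71.0 (IDR 0.0116), and the proline neighbours Y7A5A.t2 and Y7A5A.t3 shared a candidate of 61.5 (IDR 0.0135).

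Of the 94 genes at a conservative peak, 61 were in both replicates' own lists, 14 in that of replicate 2 alone, 4 in that of replicate 1 alone and 15 in neither. Of the 5 genes at a thresholded peak alone, 3 were listed in replicate 2 and none in replicate 1. These 5 are F12D9.t3 (valine, signal 79.1), F47E1.t1 (glutamine, 100.9), T06H11.t3 (arginine, 2.36), F52E10.t5 (glutamate, 72.6) and K08B5.t1 (phenylalanine, 66.6). F41D9.t4 (arginine) and F39B1.t1 (valine) were in the own list of replicate 2 and in neither list of both replicates together. Candidate signals of X genes in replicate 1 and replicate 2 went together over 139 candidates distinct in replicate 1, with Pearson's r of 0.887 and Spearman's rho of 0.876. Within the conservative class these were 0.825 and 0.821 over 84 candidates. That class was itself picked by an IDR limit, so its 2 values are no separate evidence of agreement. Genes lacking a candidate in a replicate are left out of these values. A replicate 2 candidate can enter more than once, and the strongest candidate of a gene need not be the same site in both replicates. The points are sites in the same libraries and are not independent samples. Ranks were compared over the 91 genes at a conservative peak that had a candidate in both replicates. The leucine gene F14B8.t1, listed in replicate 1 (64.5) and without a candidate in replicate 2, is not among them. The glutamate gene rte-1 was among the genes whose rank differed most, with 29.8 in replicate 1 (IDR 0.872, not listed) and 97.7 in replicate 2 (listed). The proline genes C16B8.t2 and C16B8.t3 shared a peak of 203, with 49.1 in replicate 1 and 150.4 in replicate 2.

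**Figure D2:**
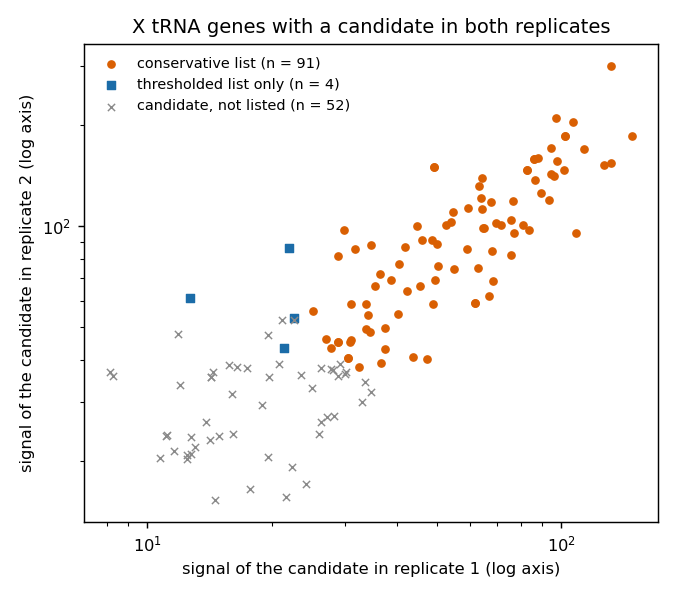
Signal of the strongest candidate within 200 bp of each X tRNA gene in replicate 1 (x, log axis) and replicate 2 (y, log axis), for the 147 genes with a candidate in both; points are genes, and neighbours can share a candidate. Genes at a conservative peak lie at the upper right, and the 4 genes at a thresholded peak alone lie low in replicate 1.

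Summits lay over the 5' part of the gene. The median summit of the 94 X genes was 20 bp inside the gene, counted from its 5' end (quartiles 7.25 and 33.8), with 70 summits inside the gene, 19 upstream and 5 downstream. For the 110 autosomal genes the median was 20.5 bp (quartiles 8 and 38.8), with 85 inside, 20 upstream and 5 downstream. In the replicates' own lists the X median was 16 bp in replicate 1 and 19.5 bp in replicate 2. The B box letters were in 268 of the 276 X genes and began 51 bp into the gene at the median. Of the 67 genes with the letters and a summit inside the gene, 62 had the summit 5' of them, by a median of 31 bp. Most of the gene body lies 5' of the letters, so a summit placed anywhere inside would often fall there, and no such placing was compared. The chromatin fragments of 200 to 800 bp are also longer than this distance. The 200 bp limit touched few genes. The members farthest inside it were H08J11.t2 (191 bp from the body), rte-5 (157 bp) and K01A12.t3 (138 bp), whose nearest summit each lies at a neighbouring tRNA gene. The nearest outside were F46G11.t1 (202 bp), F22F1.t4 (221 bp) and K01A12.t4 (253 bp).

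**Figure D3:**
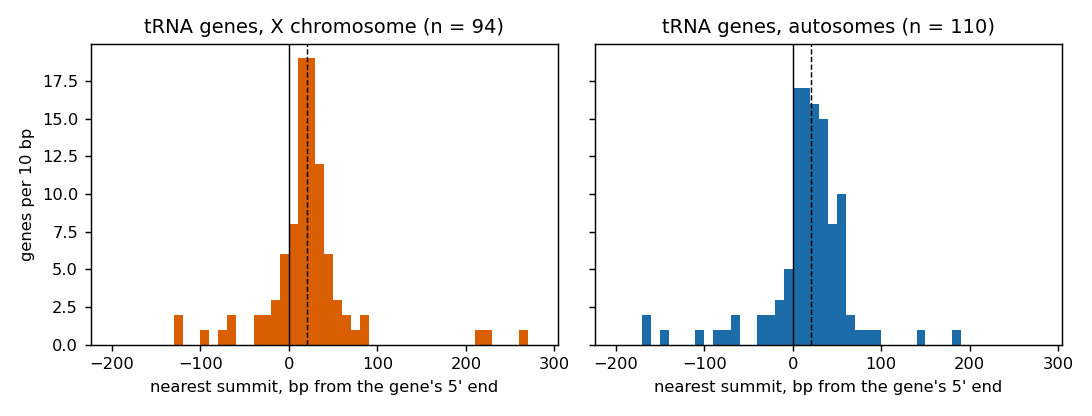
Position of the nearest conservative summit relative to the 5' end of the gene (x, bp along the gene strand, 0 is the 5' end, dashed line the median) for 94 X genes (left) and 110 autosomal genes (right), as genes per 10 bp. Both sets peak within the first 40 bp of the gene, with medians of 20 and 20.5 bp.

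Sequence parts of polymerase III genes were common both with a peak and without one. The B box letters GTTCNANNC were in 90 of 94 X genes at a conservative peak (95.7%) and in 178 of 182 others (97.8%), against 1.34% of windows of 72 bp along X on 1 strand. A run of TTTT within 30 bp after the 3' end was at 94 of 94 and 179 of 182 genes, against 34.8% of windows of 30 bp. The 50 bp upstream had a median AT content of 55% at genes with a peak and 62% at genes without one, and 56% at autosomal tRNA genes. Of the 8 genes without the letters, 4 were at a peak, the proline genes C16B8.t2 and C16B8.t3, the methionine gene F22F1.t6 and the lysine gene K11E4.t2. C16B8.t2 and C16B8.t3 differ from each other at 1 position, and each is a single copy.

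Counted per gene, clustered X genes had a lower share at a peak than X genes that stand alone. A cluster here is a run of tRNA genes with gaps of at most 1000 bp. Of the 135 clustered X genes 33 were at a conservative peak (24.4%, 17.5 to 32.6%), against 61 of 141 single genes (43.3%, 35.0 to 51.9%), and the intervals do not overlap. The replicates' own lists gave 14.1% and 17.04% for clustered genes (15.6% ± 2.10, SD, n = 2), against 32.6% and 40.4% for single genes (36.5% ± 5.52, SD, n = 2). On the autosomes the shares were 30.7% of 101 clustered genes and 33.6% of 235 single genes, with overlapping intervals. Whether the gap between single and clustered genes differs between X and the autosomes was not tested. With summits counted up to 500 bp away, 32.6% of clustered and 43.3% of single X genes were at a peak.

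Counted by cluster in place of gene, 33 of the 54 X clusters had no gene at a conservative peak, 14 had some and 7 had all. Beside them stand 61 of 141 single genes at a peak. The 94 genes had 86 distinct nearest summits, 8 of which were shared by a pair of genes. Among the 81 pairs of neighbours in clusters, 25 lay head to head (median gap 161 bp), 39 on the same strand (409 bp) and 17 tail to tail (178 bp). Both genes were at a peak in 3, 5 and 4 of these pairs, in that order. The largest clusters have 6 genes each and differ. In the F22F1 cluster (chrX:8154445-8156707) the serine and aspartate genes F22F1.t2, F22F1.t3 and F22F1.t4 were at no peak, whereas F22F1.t5 (aspartate, 93.8), F22F1.t6 (methionine, 285) and F22F1.t7 (isoleucine, 119) each had a summit of their own. In the F28H6 cluster (chrX:14135045-14137010) all 6 genes are histidine genes of identical sequence and none was at a peak. F28H6.t2 there had a candidate of 54.9 at an IDR of 0.101, and F28H6.t3, F28H6.t4, F28H6.t5, F28H6.t6 and F28H6.t7 had none in the ranked list. The arginine gene F28H6.t1 outside this cluster was at a peak of 261. The 3 proline genes of the C16B8 cluster were all at a peak, with C16B8.t1 at 159 and the pair C16B8.t2 and C16B8.t3 at 203.

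X genes inside and outside introns had overlapping shares. Of 95 tRNA genes in introns, in 67 host genes, 33 were at a conservative peak (34.7%, 25.3 to 45.2%), against 60 of 180 outside protein-coding genes (33.3%, 26.5 to 40.7%). On the host's strand it was 16 of 50 and on the opposite strand 17 of 45, which are 32.0% and 37.8%. Median signal was 146 in introns and 144 outside. Introns that held a tRNA gene at a peak had a median length of 615 bp, against 880.5 bp for those of tRNA genes without a peak. X genes lay in introns less often than autosomal tRNA genes, 34.4% against 56.0%. The hosts with most tRNA genes were K01A12.3 and ajm-1, which encodes a protein of apical cell junctions, with 5 each. In each of them a single conservative peak lay within 200 bp of a pair of tRNA genes, of signal 77.6 in K01A12.3 and 73.5 in ajm-1. The degenerin channel gene deg-1 holds 3 asparagine genes, and none was at a peak. Near starts of protein-coding genes (at most 500 bp before or 100 bp after one), 10 of 24 X tRNA genes were at a peak (41.7%), against 84 of 252 elsewhere (33.3%).

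Shares also varied along the chromosome, cut into 3 equal segments. In the first segment (chrX:1-5906314) 27 of 51 genes were at a conservative peak (52.9%, 38.5 to 67.1%), in the middle one 30 of 107 (28.04%, 19.8 to 37.5%) and in the last 37 of 118 (31.4%, 23.1 to 40.5%). The first segment was also highest in each replicate's own list, with 45.1% in replicate 1 and 49.02% in replicate 2. Clustered genes were 39.2% of the first segment, 51.4% of the middle and 50.8% of the last. Among single genes alone the shares were 64.5%, 32.7% and 41.4%. This split was chosen after values had been seen.

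Isotypes were spread among genes with and without a peak. Among isotypes with at least 5 genes on X, the share at a conservative peak ran from 2 of 14 valine genes (14.3%) to 7 of 13 alanine genes (53.8%), with wide intervals of 1.78 to 42.8% and 25.1 to 80.8%. The glutamate anticodons were picked after their values were seen. Of the glutamate genes with anticodon TTC 6 of 8 were at a peak (75%, 34.9 to 96.8%), with signals from 86.5 to 262, against 3 of 15 with anticodon CTC (20%, 4.33 to 48.1%). These intervals overlap, the difference was not tested, and the own list of replicate 1 had 6 of 8 against 2 of 15 and that of replicate 2 had 4 of 8 against 4 of 15. Of the CTC genes at a conservative peak, rte-1 alone had the nearest summit inside its own body. The summit of rte-5 lies in the serine gene F02D10.t2, and M02F4.t2 shares a summit outside its body with the glycine gene M02F4.t1. The 2 TTC genes without a peak, F11A1.t1 and F11A1.t2, are neighbours. Of the 10 valine genes with anticodon AAC none was at a conservative peak, with an exact upper bound of 30.8%, though F12D9.t3 was at a thresholded peak. Valine genes at a peak were R04D3.t2 (anticodon TAC, 251) and F59C12.t3 (anticodon CAC, 131). All 3 alanine genes with anticodon TGC were at a conservative peak, T07H6.t1 (100.2), T07H6.t2 (140.6) and F15G9.t1 (291), though T07H6.t1 was in neither replicate's own list.

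**Figure D4:**
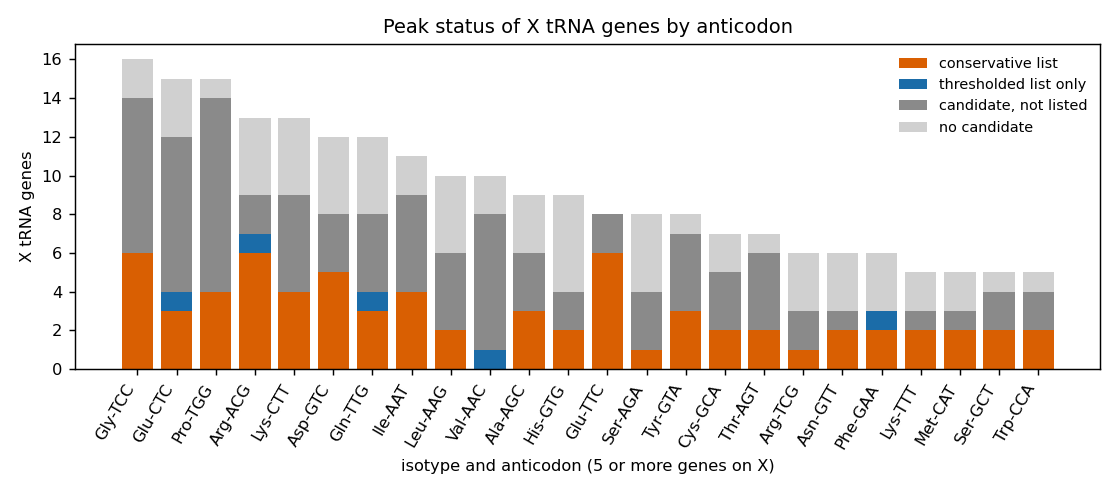
Number of X tRNA genes (y) for each isotype and anticodon with at least 5 genes on X (x), stacked by class: at a conservative peak, at a thresholded peak alone, with an unlisted candidate, and with none. Every anticodon shown but valine AAC has genes at a conservative peak, and none has all of its genes there.

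Identical genes had different peaks. The X genes have 106 distinct sequences, of which 15 occur at least 6 times on X, and each of these 15 had some copies at a conservative peak and others not. The shares within them ran from 12.5% in the histidine family shown above, 1 of 8, to 75% in the glutamate TTC family. Among the 8 histidine copies C06G1.t1, in an intron of C06G1.1, had a peak of 197, with 76.4 in replicate 1 and 119 in replicate 2. Its copy C49F5.t1 had an unlisted candidate of 40.4, and F28H6.t3 had none. The threonine family had ZK563.t1 at 233 and R11B5.t1 at 80.5, and the glutamine family R04A9.t1 at 179 and H08J11.t3 at 73.5. Of the 10 arginine copies with anticodon ACG, all of them on X, 6 were at a peak, of signal 25.05 to 89.7. Among them K01A12.t3 is counted through a summit inside its neighbour, the cysteine gene K01A12.t2. C18A11.t2, K01A12.t3 and C03A3.t1 were in neither replicate's own list, and C14F11.t1 alone was in both. The 9 leucine copies with anticodon AAG, again all on X, had C04E7.t1 at 207 and F14B8.t1 at 155 and the other 7 at no peak. C04E7.t1 was listed in both replicates, whereas F14B8.t1 had no candidate in replicate 2 and was at no thresholded peak. Of the 6 tyrosine copies on X, C02B4.t2 had 237 and R11.t1 had 185.

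**Figure D5:**
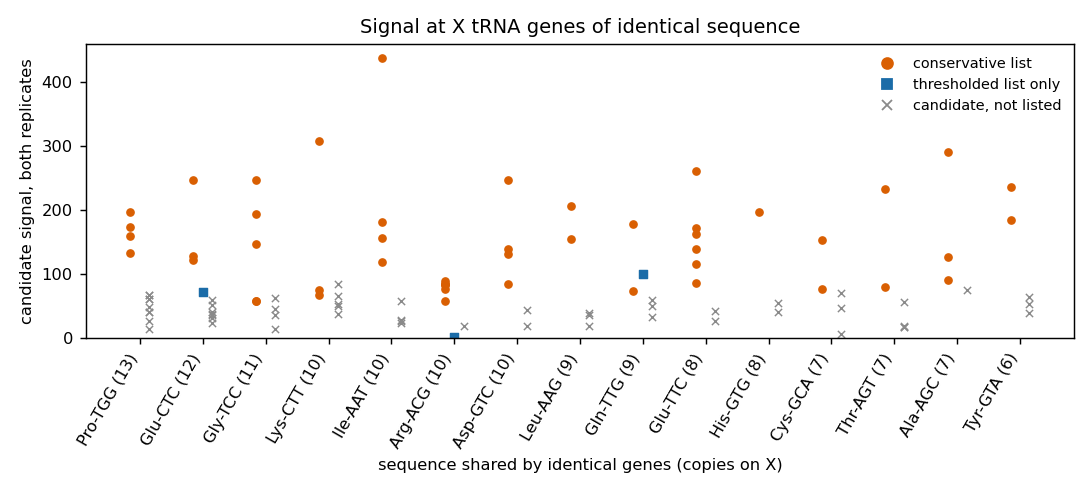
Signal of the strongest candidate within 200 bp (y) for each copy of the 15 sequences that occur at least 6 times on X (x, copies on X in brackets), by class; copies without a candidate have no point. In every family listed copies and unlisted copies both occur, and isoleucine AAT holds the strongest, at 438.

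Genes with a single copy in the genome were at a peak in 12 of 57 cases (21.1%, 11.4 to 33.9%), against 26 of 65 with 2 to 9 copies (40%, 28.04 to 52.9%) and 56 of 154 with 10 or more (36.4%, 28.8 to 44.5%). Autosomal tRNA genes had 18.6% with a single copy and 37.6% with more. Among X genes with at least 2 copies, 27 of 106 clustered genes were at a peak (25.5%, 17.5 to 34.9%), against 55 of 113 single genes (48.7%, 39.2 to 58.3%). Single-copy genes had 6 of 29 in clusters and 6 of 28 alone. How reads that match several places were treated is not stated in these sources, and its part in these shares was not tested. As a measure of such places, the share of words of 31 bases in the 500 bp around each gene that recur in the genome had a median of 11.9% at genes with a peak and 12.1% at genes without one. It was over 40% at 11 genes, none of them at a conservative peak, 5 of which are in the F28H6 cluster. Intron-bearing tRNA genes, among them the leucine CAA genes shown above, were at a peak in 6 of 12 cases (50%, 21.1 to 78.9%).

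Few X tRNA genes have a name other than that of their clone. The sup genes among them are known as loci of amber suppressors, mutated tryptophan tRNA genes that read a stop codon, and the sup-7, sup-28, sup-21 and sup-33 bodies are identical over 72 bp in the reference, with 10 copies in the genome. At sup-7, in an intron of C03B1.2, the signal was 161, with 64.7 in replicate 1 and 98.8 in replicate 2, both listed. At sup-28, in an intron of trk-1, it was 105, with 42.4 and 64.1, both listed. At sup-21, outside protein-coding genes, an unlisted candidate had 31.2, and at sup-33, in another intron of trk-1, 36.2. The tryptophan gene rtw-5, a single copy that differs from sup-7 at 1 position, had no candidate in either replicate. Of the glutamate CTC genes with names, rte-1 was at a peak of 129 and rte-5 at one of 123 whose summit lies in its neighbour F02D10.t2, and rte-3 had an unlisted candidate of 59.4. A list of 12 genes for polymerase III, its factors and the processing and export of tRNA was also looked up. Of the 12, 1 had a conservative summit near its start (8.33%), rpac-19, which encodes a subunit shared by polymerases I and III, with a signal of 90.9, against 1.65% of the 19973 protein-coding genes.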

How the data were processed

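ChIP-seq peak lists of 2 biological replicates on ce11 were used. Per the deposited readme, each list was made from the alignments of 1 replicate or of both, with no aligner, peak caller or read depth given in the sources used here. The authors' signal is the caller's value per peak, on a scale not given. The deposited score in the ranked lists is minus log10 of the global IDR, converted here to the IDR. The summit is the peak start plus the deposited offset.

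tRNA genes came from Ensembl release 115, and all 276 on X matched RefSeq genes, which gave the isotypes. Anticodons were read from the sequence by script, and 8 on X stayed unresolved. The self-made steps ran in Python 3.11.15 with numpy 2.4.6, pandas 2.3.3 and scipy 1.17.1, and the summit search was tested on simulated data. Members and lists were chosen with earlier results of these data known. The text names genes at the 10 strongest and 3 weakest X peaks, each gene taken with its nearest peak. It also names 3 unlisted members by signal and 3 by IDR, and members with gene names. The 2 largest clusters and 3 members whose ranks differ most between replicates are named too. Other genes, the repeated words and the segments of X were chosen after their values were seen. Alternatives were other distances, gaps and lists and the 50% of peaks with the highest signal. Replicates were averaged as separate samples, and no p-value was computed.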

Additional observations from a re-analysis of the deposited data

How the results depend on the processing

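Alternatives to the conservative list with a distance of 200 bp changed the results by differing amounts. The 94 X genes became 65 to 105 under all alternatives run. X genes in introns numbered 33, but 23 in the own list of replicate 1, and single X genes 61, but 46 there. The following changed as well. Autosomal genes at a peak numbered 110, but 68 with the 50% of peaks of highest signal, and 60 to 88 in the replicates' own lists. Clustered X genes numbered 33, but 20 with summits inside the gene, 21 with the stronger 50%, and 19 to 23 in the own lists. The median signal of 144 became 173 with the stronger 50%, and 67.9 to 97.7 in the own lists. The median position of 20 bp became 17.5 bp with the stronger 50%, and 16 to 19.5 bp in the own lists. The cause was not tested, except that the stronger 50% and the own lists hold fewer peaks by construction. The X share was above the autosomal share with other distances, with the stronger 50% and in each own list, by little with summits inside the gene (25.4% against 25.3%). It was below it in the thresholded list (34.4% against 36.0%) and for a peak of either list (35.9% against 37.2%). Counted per gene, clustered X genes had the lower share in each of the 9 alternatives run, closest at a distance of 500 bp (32.6% against 43.3%). All 9 count genes, though neighbours can share a summit. Counted by cluster, 14 of 54 X clusters had some genes and 7 had all genes at a conservative peak, against 61 of 141 single genes. No paired analysis was possible because the series has a single group. Read depth being unknown, a gene without a peak is one without a listed summit, not one without the protein.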
